A study of Mus musculus with 10 samples.

Results

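The 10 genes described here are the ligand Fgf4, the receptors Fgfr1 and Fgfr2, the feedback inhibitors Spry2, Spry4, Dusp4 and Dusp6, and the transcription factors Etv4, Etv5 and Egr1. They were chosen by name as FGF and ERK pathway feedback genes, out of 19477 genes that could be named in the whole table. They hold 26 of the 43031 features measured, at 12 of 28730 sites. A feature is the 3′UTR of 1 UCSC transcript with 2 kb added downstream, and a site is the sum of all features with identical mm10 coordinates. The site of a gene with the highest mean level over all libraries is called its lead site.

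RNA-seq of mouse embryonic stem cells (ESC) of the C57BL/6 strain compared WT with 2 DIDO3 mutants, DIDO3 being the largest protein made from the Dido1 gene. DIDO3ΔE16 ESC (labelled DIDO3_exon16 mutant) lost the floxed DIDO3-specific exon through SOX2-Cre. DIDO3ΔCT+HADIDO3 ESC (labelled DIDO3_dCT+HADIDO3 mutant) carry a C-terminal deletion of DIDO3 and express HA-tagged DIDO3, and unreconstituted DIDO3ΔCT ESC were not analysed here. All ESC were grown with LIF and serum on mitomycin C-treated mouse embryonic fibroblasts or on gelatin, and no source used here says which library came from which surface, or whether libraries of a group came from separate cultures or clones. If they did not, the p-values measure technical spread alone. Each group had 3 libraries: WT replicates 1, 2-3 and 4 (library 2-3 carries the number of both replicates and counts once), and replicates 1 to 3 of each mutant.

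FGF4 is the main FGF that ESC make. It binds FGF receptors with heparan sulphate and, through adaptors and RAS, activates the kinases RAF, MEK and ERK. ERK signalling moves ESC out of the naive state and favours primitive endoderm in the early embryo, while its target genes include its own inhibitors: Sprouty proteins act on the way from receptor to RAF, and dual-specificity phosphatases remove the activating phosphates from ERK. The levels of these inhibitors and of the ETS factors ETV4 and ETV5 are therefore widely used as readouts of the pathway.

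The measured Fgf4 site holds the enhancer for which this gene is known, a joint binding element of SOX2 and OCT4 inside the 3′UTR. It is shown because the feature that was quantified contains it, at bases 1453 to 1470 of a 3′UTR of 2302 bases (chr7:144864388-144864417, plus strand, GRCm38, GENCODE vM21 transcripts), with the letters of the motif in capitals.

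Fgf4 SOX2 and OCT4 element: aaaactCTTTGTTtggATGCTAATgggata

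This motif (the capitals in order, with any 3 bases between its 2 runs), searched on both strands, was found in 1 of 21028 3′UTRs (the longest of each protein-coding gene), which is that of Fgf4. The mRNAs of feedback genes are often short-lived, and the AU-rich heptamer TATTTAT is a core of known decay elements, so its matches on the mRNA strand are shown for Fgf4, Spry2 and Etv5 (heptamer in capitals, GRCm38). They lie at chr7:144863069-144863098 on the plus strand for Fgf4, at chr14:105892091-105892120 and chr14:105892052-105892081 on the minus strand for Spry2, and at chr16:22381761-22381790 on the minus strand for Etv5.

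Fgf4: ggacgcccaatTATTTATaattttatgtat
Spry2, first: agtgtaaagaaTATTTATttgaagttttat
Spry2, second: aaaaaaaagaaTATTTATtttaagaggcat
Etv5: tttcataagcaTATTTATagctttctaatc

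Spry4 held 4 matches, and Fgfr1, Fgfr2, Dusp4, Dusp6, Etv4 and Egr1 held 0. Among 3′UTRs within 20% of the length, the heptamer was present in 43.9% for Fgf4, 20.4% for Spry2, 42.9% for Etv5 and 57.5% for Spry4. For the genes without a match this share was 16.9% (Etv4) to 37.6% (Fgfr1), and over all 3′UTRs it was 27.6%. A match is a description of the letters and no measurement of decay.

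All values are TPM, a share of the library in which each feature is divided by its length. Bases in features came to 1.46 to 2.61 Gb per library, and 1 TPM stood for a mean coverage of 0.434 to 0.775. The most distal Dido1 site had 16.1 ± 2.17 TPM in the WT libraries, 0.455 ± 0.129 in those of DIDO3ΔE16, and 11.5 ± 0.578 in those of DIDO3ΔCT+HADIDO3 (SD, n = 3). The library labels of WT replicates 1 and 4 begin with C7A9, and those of all other libraries with C79M. These prefixes are called flow cell families here, a reading that no label states. WT replicate 2-3 is the only WT library of the mutants' family. All 8 pluripotent ESC markers were above 1 TPM in every library. The level of a site could jump within a group: the highest library exceeded the lowest more than 4-fold at 5.27% to 5.88% of sites listed as 1 feature and at 16% to 20.4% of sites that sum several features (mean of at least 10 TPM, range over the 3 groups). The lead sites of Fgf4, Spry2, Spry4, Dusp4, Dusp6 and Egr1 are listed as 1 feature, while those of Fgfr1, Fgfr2, Etv4 and Etv5 sum 4, 8, 4 and 2. In bulk RNA, fewer cells of a type and less RNA per cell cannot be told apart.

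**Figure D1:**
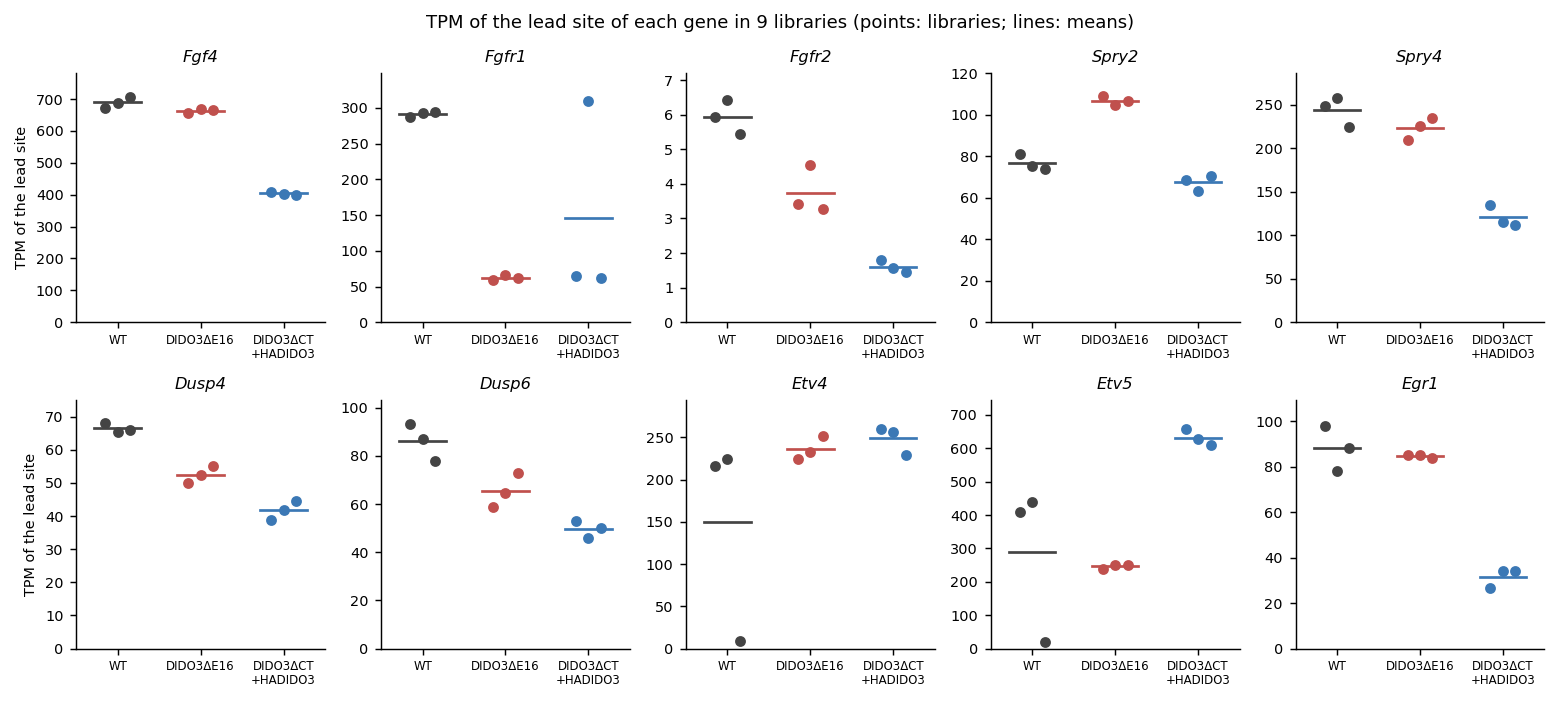
TPM of the lead site (linear axis from 0) of each of the 10 genes in 3 WT, 3 DIDO3ΔE16 and 3 DIDO3ΔCT+HADIDO3 libraries, with points for libraries and lines for means. The DIDO3ΔCT+HADIDO3 libraries lie below all WT libraries for Fgf4, Fgfr2, Spry2, Spry4, Dusp4, Dusp6 and Egr1, and 1 library stands apart from its group for Fgfr1 (DIDO3ΔCT+HADIDO3 replicate 2) and for Etv4 and Etv5 (WT replicate 4).

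The comparison of DIDO3ΔCT+HADIDO3 with WT asked how far the reconstituted line differed from WT. Of the 10 lead sites, 6 were lower in DIDO3ΔCT+HADIDO3 and 0 were higher, with falls between 41.7% (Dusp4) and 73.6% (Fgfr2). To be called, a site needed a log2 fold change of 0.7 or more in either direction and a limma adjusted p (Benjamini-Hochberg over all sites tested) under 0.05. Of all 20879 sites, 17.3% were called, with 7.24% lower and 10.1% higher. The groups did not overlap at 9 of the 10 lead sites, at 7 of them with DIDO3ΔCT+HADIDO3 lower, against 53.5% and 21.4% of all sites. Of the 6 members listed as 1 feature, 5 were called lower, and 5 were also called in a separate fit of sites of 1 feature that overlap no other on their strand, a fit chosen after seeing the data. Over its sites 22.7% were called, 8.99% as lower and 13.7% as higher. The median log2 fold change of the 10 members was -0.88, and that of all sites was -0.01.

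The comparison of DIDO3ΔE16 with WT asked for the effect of losing the DIDO3-specific exon. There, 2 of the 10 lead sites were called lower, those of both receptors, and 0 were called higher. Of all 21063 sites, 15.1% were called, with 4.94% lower and 10.2% higher, a split that under quantile normalization moved from 67.4% to 55.0% higher among the sites called. The groups did not overlap at 6 lead sites, 5 of them lower in DIDO3ΔE16, against 49.4% and 21.7% of all sites. The median of the members was -0.15 (all sites -0.01). None of the 6 members listed as 1 feature was called, though 3 of them (Spry2, Dusp4 and Dusp6) had an adjusted p under 0.05 with a smaller change. In the fit of sites of 1 feature alone, 0 of the 6 were called, and 18.9% of those sites were, 5.77% as lower and 13.1% as higher.

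Set against each other directly, DIDO3ΔE16 and DIDO3ΔCT+HADIDO3 differed at 5 of the 10 lead sites, with Fgf4, Fgfr2, Spry4 and Egr1 higher in DIDO3ΔE16 and Etv5 lower. Of all 21172 sites, 27.4% were called, 13.9% as higher in DIDO3ΔE16 and 13.4% as lower. The mutants did not overlap at 8 lead sites, 1 of them lower in DIDO3ΔE16, against 61.6% and 31.9% of all sites. Of the 6 members listed as 1 feature, 3 were called, all higher in DIDO3ΔE16. In the fit of sites of 1 feature alone, 4 of the 6 were called, the added gene being Spry2, against 32.7% of those sites (16.5% higher and 16.1% lower). This comparison involves no WT library, and all its library labels begin with C79M. The rest of the label is not shared, as DIDO3ΔE16 replicate 2 continues with GANXX and the other mutant libraries with AANXX. The comparisons with WT share the WT libraries, so their values are given side by side and were not correlated.

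**Figure D2:**
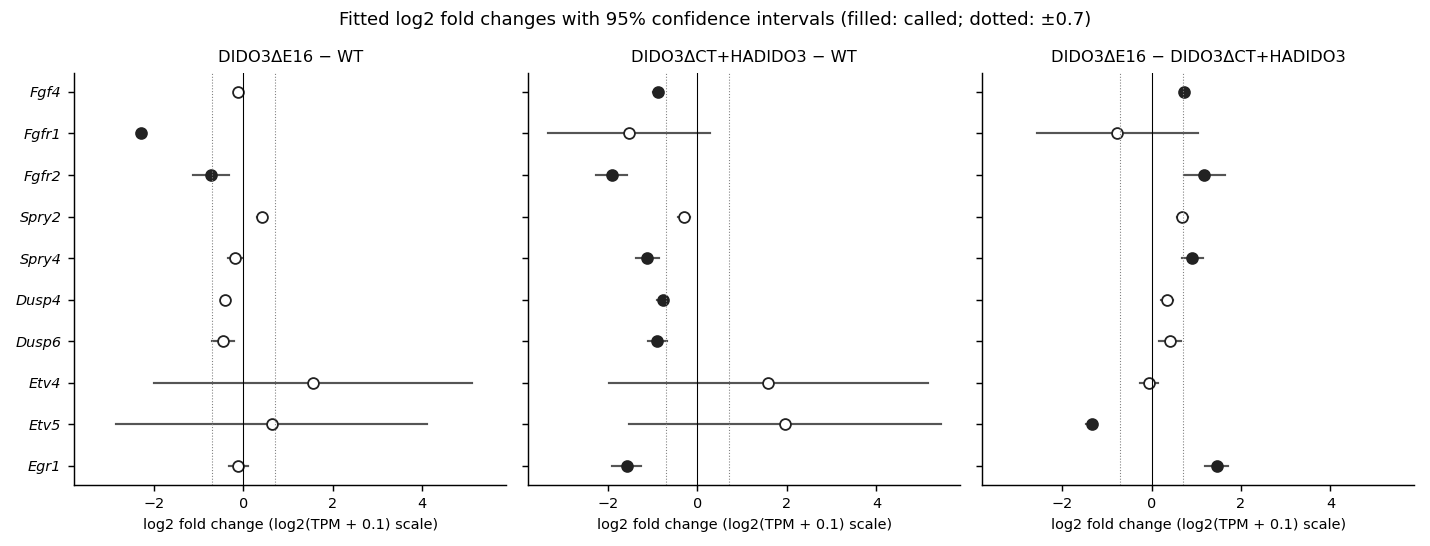
Log2 fold change of each lead site (log2(TPM + 0.1) scale) in the 3 comparisons, with 95% confidence intervals from limma, filled points for called sites and dotted lines at a log2 fold change of 0.7 in either direction. The 6 filled points of the middle panel all lie left of 0, and the intervals are wide for Etv4 and Etv5 in both comparisons with WT and for Fgfr1 in both comparisons that include DIDO3ΔCT+HADIDO3.

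Fgf4, the ligand, was the most abundant of the 10 in WT. Its lead site (chr7:144862942-144867243, plus strand) had 671, 689 and 708 TPM in WT replicates 1, 2-3 and 4. DIDO3ΔE16 had 655, 669.9 and 667 TPM in replicates 1 to 3, just under the lowest WT library. In DIDO3ΔCT+HADIDO3 it had 409, 403 and 400.1 TPM, far below both other groups. This was a fall of 45.4%, a log2 fold change of -0.87 ± 0.0438 (SE) with an adjusted p of 0.000244. DIDO3ΔE16 differed from WT by -0.12 (adjusted p = 0.0582) and from DIDO3ΔCT+HADIDO3 by 0.73 ± 0.0306 (adjusted p = 6.46e-05). The last of these fell just under the fold threshold under quantile normalization (0.69) and with all features of the gene summed (0.70). Within groups the SD was at most 18.2 TPM. Of the factors that bind the element shown above, Sox2 had 459.5 to 485 TPM in WT and 446 to 479 in DIDO3ΔCT+HADIDO3, a log2 fold change of -0.14 (adjusted p = 0.0193), under the fold threshold. Pou5f1, which encodes OCT4, had 168 to 484 TPM in WT and 193 to 221 in DIDO3ΔCT+HADIDO3 (-0.33, adjusted p = 0.623).

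Fgfr1 encodes the main FGF receptor of naive and primed pluripotent cells. Its lead site (chr8:25573922-25577718, plus strand) had 288, 293 and 295 TPM in the WT libraries and 59.8, 65.5 and 62.5 in those of DIDO3ΔE16. The groups were far apart, with a log2 fold change of -2.28 ± 0.0415 and an adjusted p of 3.57e-05, the largest called change among the lead sites. DIDO3ΔCT+HADIDO3 replicates 1 and 3 had 64.5 and 62.6 TPM and replicate 2 had 310.2. Replicates 1 and 3 thus lay at the DIDO3ΔE16 level and replicate 2 at the WT level, and the group mean of 146 ± 142 TPM describes none of them. Neither comparison with that group passed the test (adjusted p = 0.151 against WT, and 0.416 against DIDO3ΔE16). Without DIDO3ΔCT+HADIDO3 replicate 2, the site was called lower than WT, with a log2 fold change of -2.30 (adjusted p = 0.000613).

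The way the Fgfr1 TPM were spread over the 4 features with identical coordinates changed in the same libraries. In WT, features uc009lfy.2, uc009lfz.2 and uc009lga.2 had 57.2 to 58.5 TPM each and uc033jet.1 had 116 to 119, and in DIDO3ΔCT+HADIDO3 replicate 2 they had 61.7 each and 125. In the 5 other mutant libraries uc033jet.1 had 59.8 to 65.5 TPM and the remaining features 0 to 0.512. With the highest feature in place of the sum, an alternative chosen after seeing the data, the DIDO3ΔE16 change was -0.99 (adjusted p = 0.000357) and that of DIDO3ΔCT+HADIDO3 was -0.67 (adjusted p = 0.154). The Fgfr1 site overlaps that of Letm2 on the opposite strand, and the deposited command line names no strand option. Letm2 had 0.978 to 1.51 TPM in WT, 2.00 in DIDO3ΔCT+HADIDO3 replicate 2 and at most 0.176 in the other mutant libraries. Both the feature split and Letm2 moved with Fgfr1, and their part in its values was not tested.

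The sites of other genes with the pattern most like Fgfr1 over the 9 libraries were those of Phlpp1, Taf4b and Cdk5rap1, with Pearson correlations of 0.95, 0.93 and 0.91 among 8133 candidate sites. These describe the likeness of 9 points that share their libraries.

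Fgfr2, a receptor that primitive endoderm precursors use in the early embryo, was the least abundant member. Its lead site (chr7:130160451-130163958, minus strand) had 5.92, 6.42 and 5.43 TPM in the WT libraries, 3.42, 4.54 and 3.27 in those of DIDO3ΔE16, and 1.81, 1.56 and 1.45 in those of DIDO3ΔCT+HADIDO3. The 3 groups did not overlap, with WT highest and DIDO3ΔCT+HADIDO3 lowest. DIDO3ΔCT+HADIDO3 was lower than WT by a log2 fold change of -1.92 ± 0.139 (adjusted p = 0.000626), and DIDO3ΔE16 exceeded DIDO3ΔCT+HADIDO3 by 1.18 ± 0.183 (adjusted p = 0.00407). For DIDO3ΔE16 against WT the change of -0.72 ± 0.157 (adjusted p = 0.0208) stood just past both thresholds. That last call was lost at an adjusted p under 0.01, with a pseudocount of 1 (-0.60) and without scaling (-0.66). It was also lost within the C79M flow cell family (-0.85, with 1 WT library). Leaving out WT replicate 1 (-0.73, adjusted p = 0.0584) or 2-3 (-0.67, adjusted p = 0.0643) removed it too. The same held without DIDO3ΔE16 replicate 1 (-0.67, adjusted p = 0.0643) or 3 (-0.63, adjusted p = 0.0592). Of the 8 features at the site, 1 (uc033jck.1) was above 0.

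A more proximal Fgfr2 site (chr7:130194172-130196365) followed the same order at a lower level, with 1.64, 2.25 and 2.13 TPM in the WT libraries, 1.39, 0.987 and 0.643 in those of DIDO3ΔE16, and 0.163, 0.179 and 0.394 in those of DIDO3ΔCT+HADIDO3. It was called lower in DIDO3ΔCT+HADIDO3 than in WT (-2.74 ± 0.307, adjusted p = 0.0022) and higher in DIDO3ΔE16 than in DIDO3ΔCT+HADIDO3 (1.70 ± 0.39, adjusted p = 0.0166), and missed the threshold in DIDO3ΔE16 against WT (-1.03 ± 0.315, adjusted p = 0.0587). The remaining Fgfr2 site (chr7:130239029-130241191) was at or below 0.161 TPM in every library and was not tested. Use of the 2 tested sites relative to each other did not pass the test in any comparison (limma diffSplice, adjusted p = 0.659 for DIDO3ΔE16, 0.129 for DIDO3ΔCT+HADIDO3 and 0.428 between the mutants), and the unadjusted p was 0.0304 for DIDO3ΔCT+HADIDO3 against WT. Over all sites tested for usage, 11.1%, 10.9% and 21.7% were called in these comparisons.

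Markers of primitive endoderm were, like Fgfr2, lower in both mutants than in WT as a sum, but not all kept the order of Fgfr2 between the mutants. Their lead sites summed to 73.4 to 98.7 TPM in the WT libraries, 29.2 to 39.7 in those of DIDO3ΔE16, and 25.6 to 29.8 in those of DIDO3ΔCT+HADIDO3. Of 7 tested, 4 were lower in DIDO3ΔE16 and 6 in DIDO3ΔCT+HADIDO3 (4.94% and 7.24% of all sites), and 0 were higher in either (10.2% and 10.1%). Between the mutants 3 of 7 were called higher in DIDO3ΔE16 and 0 lower (13.9% and 13.4% of all sites). Among the defining markers, Gata4 had a mean of 33.5 TPM in the WT libraries, 13.5 in those of DIDO3ΔE16, and 11.4 in those of DIDO3ΔCT+HADIDO3. Gata6 had 12.9, 4.66 and 6.98, so that between the mutants it went the other way than Fgfr2. Their part in the Fgfr2 values was not tested.

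Spry2 and Spry4 encode Sprouty inhibitors of receptor signalling. Spry4 (chr18:38584265-38589805, minus strand) had 249, 257 and 224 TPM in the WT libraries, 209.8, 225 and 235 in those of DIDO3ΔE16, and 134, 115 and 112 in those of DIDO3ΔCT+HADIDO3. WT and DIDO3ΔE16 overlapped, and all 3 DIDO3ΔCT+HADIDO3 libraries lay far below both. Spry4 fell by 1.12 on the log2 scale in DIDO3ΔCT+HADIDO3 against WT (SE 0.0998, adjusted p = 0.00112), and was higher in DIDO3ΔE16 than in DIDO3ΔCT+HADIDO3 by 0.91 ± 0.0938 (adjusted p = 0.000958). In DIDO3ΔE16 against WT the difference was -0.19 (95% confidence interval -0.34 to -0.03, adjusted p = 0.0744).

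Spry2 (chr14:105889947-105892802, minus strand) had 81.1, 75.2 and 74.1 TPM in the WT libraries, 109, 105 and 107 in those of DIDO3ΔE16, and 68.6, 63.4 and 70.3 in those of DIDO3ΔCT+HADIDO3. The 3 groups did not overlap, and here DIDO3ΔE16 was the highest. It had the only value above WT in DIDO3ΔE16 among the 6 members listed as 1 feature, with 0.41 ± 0.0411 (adjusted p = 0.00186), under the fold threshold. DIDO3ΔCT+HADIDO3 was below WT by -0.29 ± 0.0531 (adjusted p = 0.0105). The direct difference between the mutants was 0.68 ± 0.0488 (adjusted p = 0.000293), just under the threshold, and it passed under quantile normalization (0.70), without DIDO3ΔE16 replicate 2 or DIDO3ΔCT+HADIDO3 replicate 1 (0.70 each), and in the fit of sites of 1 feature alone (0.71).

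Dusp4 and Dusp6 encode phosphatases that inactivate ERK, DUSP4 in the nucleus and DUSP6 in the cytoplasm. Both were highest in WT, intermediate in DIDO3ΔE16 and lowest in DIDO3ΔCT+HADIDO3, without overlap between groups. Dusp4 (chr8:34818784-34821894, plus strand) had 68.2, 65.4 and 65.9 TPM in the WT libraries, 50.004, 52.3 and 55.1 in those of DIDO3ΔE16, and 38.8, 41.8 and 44.5 in those of DIDO3ΔCT+HADIDO3. Dusp6 (chr10:99266300-99269489, plus strand) had 93.4, 86.9 and 77.8 TPM in the WT libraries, 58.7, 64.6 and 73.1 in those of DIDO3ΔE16, and 52.8, 45.8 and 50.2 in those of DIDO3ΔCT+HADIDO3. Against WT, DIDO3ΔCT+HADIDO3 was called lower for Dusp4 (-0.78 ± 0.0471, adjusted p = 0.000388) and for Dusp6 (-0.89 ± 0.086, adjusted p = 0.0014). The Dusp4 call was lost without scaling between libraries (-0.67). In DIDO3ΔE16 the changes were -0.41 ± 0.0412 (adjusted p = 0.00195) and -0.46 ± 0.0961 (adjusted p = 0.0186), both under the fold threshold. Between the mutants, Dusp4 differed by 0.35 (adjusted p = 0.0042) and Dusp6 by 0.42 (adjusted p = 0.0184), again under it.

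Etv4 and Etv5 encode ETS transcription factors of the PEA3 group that FGF signalling induces. In WT replicate 4 both were far below the other WT libraries. Etv4 (chr11:101767748-101770365, minus strand) had 217, 225 and 9.33 TPM in the WT libraries, 224, 232 and 252 in those of DIDO3ΔE16, and 260.4, 257 and 229.6 in those of DIDO3ΔCT+HADIDO3. Apart from WT replicate 4, the libraries ranged from 217 to 260.4 TPM. No comparison of Etv4 passed the test (adjusted p = 0.443, 0.424 and 0.583), and the mutants differed by -0.06 with a 95% confidence interval of -0.25 to 0.14. All 4 Etv4 features were at 2.27 to 2.45 TPM in WT replicate 4. In DIDO3ΔE16 replicate 3 nearly all of the sum was in uc057bag.1 (249.98 TPM), with the sum itself in the range of the group. The site overlaps that of Dhx8 on the opposite strand, which had 71.8 to 76.9 TPM in WT, WT replicate 4 being the lowest.

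Etv5 (chr16:22379313-22383469, minus strand) had 409, 438 and 19.3 TPM in the WT libraries, 238, 249 and 251 in those of DIDO3ΔE16, and 659, 627 and 609 in those of DIDO3ΔCT+HADIDO3. The mutants were tight and far apart, with DIDO3ΔE16 lower by a log2 fold change of -1.34 ± 0.0501 (adjusted p = 5.1e-05), opposite in direction to Fgf4, Fgfr2, Spry4 and Egr1. Against WT neither mutant passed the test (0.64, adjusted p = 0.755 in DIDO3ΔE16, and 1.96, adjusted p = 0.317 in DIDO3ΔCT+HADIDO3). Without WT replicate 4, DIDO3ΔE16 was called lower than WT (-0.84, adjusted p = 0.00197) and DIDO3ΔCT+HADIDO3 was above WT by 0.48 (adjusted p = 0.0121), under the fold threshold. Within the C79M flow cell family the values were -0.91 (adjusted p = 0.00256) and 0.42 (adjusted p = 0.0518). The Etv5 sum was spread over uc007yse.1 and uc012adn.1 about evenly in 6 libraries and was almost all in uc012adn.1 in WT replicate 2-3, DIDO3ΔE16 replicate 2 and DIDO3ΔCT+HADIDO3 replicate 1, and the group sums did not follow that split. With the highest feature in place of the sum, the direct difference was -1.35 (adjusted p = 0.0601), and in 1 fit of all 9 libraries, which takes in the spread of WT replicate 4, it was -1.33 (adjusted p = 0.378).

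**Figure D3:**
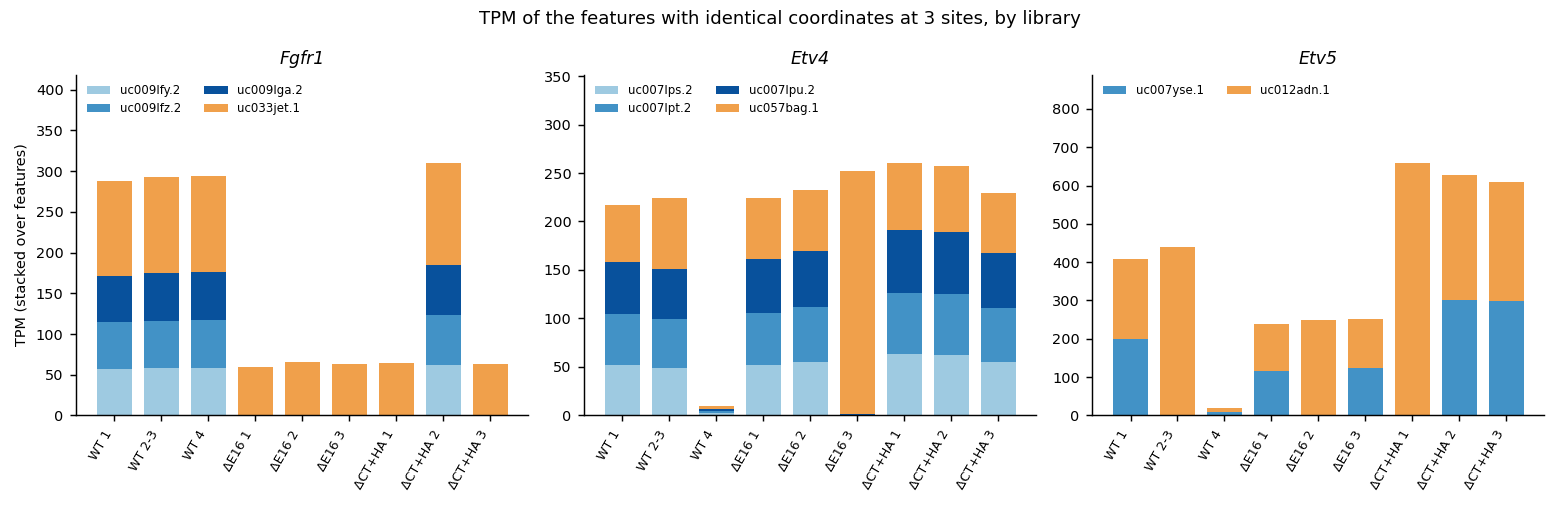
TPM of the features with identical coordinates (stacked bars, linear axis from 0) at the Fgfr1, Etv4 and Etv5 lead sites in each of the 9 libraries, ΔCT+HA standing for DIDO3ΔCT+HADIDO3. Fgfr1 is high where all 4 features have TPM and low where 1 has nearly all, while for Etv5 the sum stays at the level of the group in the 3 libraries with 1 feature only, and WT replicate 4 is low at Etv4 and Etv5.

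Egr1 encodes an immediate-early zinc finger factor whose transcription follows ERK activity within minutes. Its lead site (chr18:34863769-34866956, plus strand) had 97.96, 77.98 and 88.5 TPM in the WT libraries, 85.3, 85.4 and 83.9 in those of DIDO3ΔE16, and 26.6, 34.0 and 34.1 in those of DIDO3ΔCT+HADIDO3. DIDO3ΔE16 lay within the WT range and DIDO3ΔCT+HADIDO3 below both. The fall in DIDO3ΔCT+HADIDO3 was 66.7%, a log2 fold change of -1.58 ± 0.125 (adjusted p = 0.000799). DIDO3ΔE16 exceeded DIDO3ΔCT+HADIDO3 by 1.45 ± 0.0979 (adjusted p = 0.000241) and differed from WT by -0.11 (95% confidence interval -0.32 to 0.10, adjusted p = 0.361).

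Within the C79M flow cell family, WT replicate 2-3 stands alone on the WT side and was assumed to vary like the mutants. All C7A9 libraries are WT, so with the family as a covariate the differences from WT rest on that same library. The fit within C79M and the fit with the covariate are therefore no separate checks. Over all alternatives, both fits included, the 6 lead sites called lower in DIDO3ΔCT+HADIDO3 had log2 fold changes of -0.67 (Dusp4) or lower. In DIDO3ΔE16 against WT, Fgfr1 lay between -2.31 and -0.97 over the same alternatives.

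A wider view came from 67 other genes of the pathway in 6 lists, of which 65 had a lead site (Spry3 and Dusp5 had no site under their names) and 65 were tested in each comparison. In DIDO3ΔCT+HADIDO3 against WT, 16 were called lower and 2 higher, with a median log2 fold change of -0.28. In DIDO3ΔE16 against WT, 3 were lower and 6 higher (median -0.20), and between the mutants 16 were higher in DIDO3ΔE16 and 3 lower (median 0.05). Over all sites, 7.24% were lower and 10.1% higher in the first of these comparisons, 4.94% and 10.2% in the second, and 13.4% lower and 13.9% higher in DIDO3ΔE16 in the direct one, so that the counts in DIDO3ΔE16 against WT were near the share over all sites. Of 26 lead sites with 1 feature and no same-strand overlap, 9 were lower and 0 higher in DIDO3ΔCT+HADIDO3 than in WT. Over all such sites the shares were 8.99% lower and 13.7% higher. In DIDO3ΔE16 against WT 2 of the 26 were lower and 2 higher (5.77% and 13.1% of all such sites). Between the mutants 0 were lower in DIDO3ΔE16 and 7 higher (16.1% and 16.5%).

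**Figure D4:**
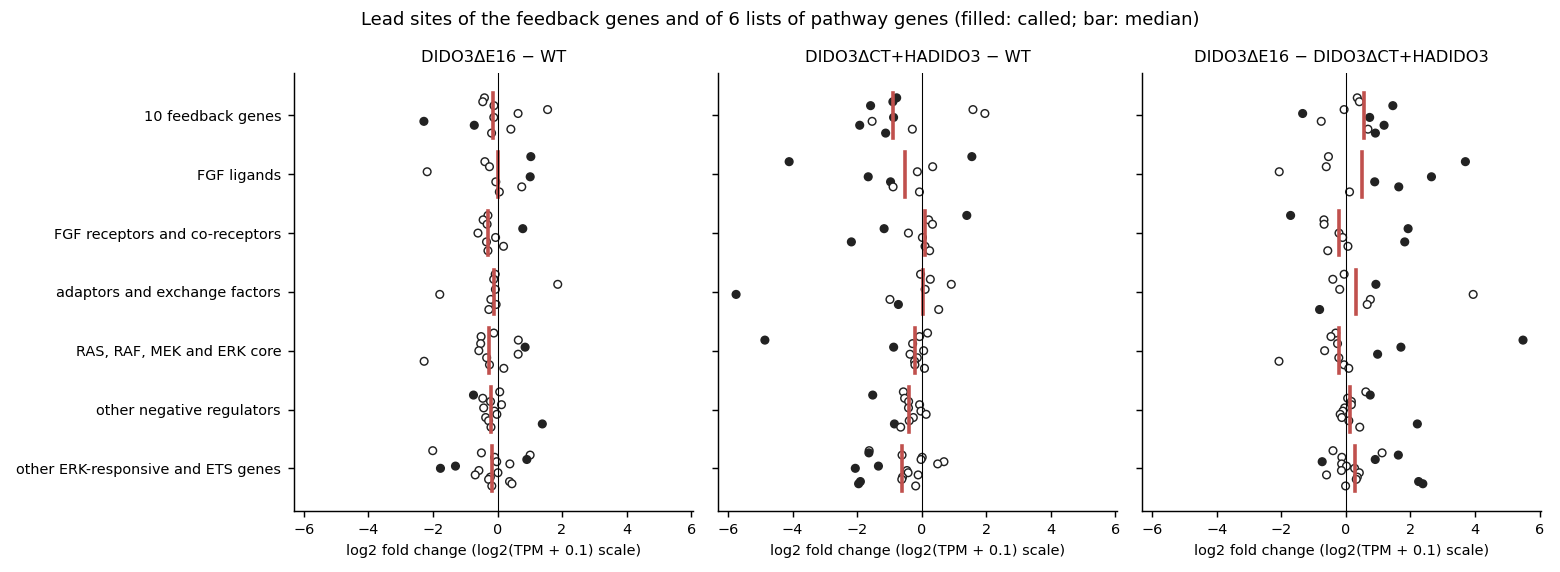
Log2 fold change (log2(TPM + 0.1) scale) of the lead sites of the 10 feedback genes and of 6 lists of other pathway genes in the 3 comparisons, with filled points for called sites and a bar at each list's median. In DIDO3ΔCT+HADIDO3 against WT the medians of the feedback genes (-0.88), the FGF ligands (-0.51) and the other ERK-responsive and ETS genes (-0.60) lie left of 0, and that of the receptors and co-receptors (0.10) does not.

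Of 17 other ERK-responsive and ETS genes tested, 5 were lower in DIDO3ΔCT+HADIDO3 than in WT and 0 higher: Fosb (-2.06), Phlda1 (-1.96), Myc (-1.90), Egr2 (-1.64) and Fos (-1.34). Over all sites 7.24% were lower and 10.1% higher. Of the 5 genes, Myc sums 3 features, and Fosb overlaps another site on its own strand. Egr2 sums 2 features and overlaps another site on the opposite strand, at means of 2.59 TPM in WT and 0.815 in DIDO3ΔCT+HADIDO3. Fos and Fosb, partners of JUN in the AP-1 factor and immediate-early genes like Egr1, were lower in DIDO3ΔE16 as well (-1.30 and -1.77), where Egr1 was at the WT level. Fos had 73.1, 63.5 and 74.8 TPM in the WT libraries, 32.2, 29.0 and 28.1 in those of DIDO3ΔE16, and 25.9, 31.7 and 32.0 in those of DIDO3ΔCT+HADIDO3, so that both mutants lay below every WT library. Phlda1 and Myc differed between the mutants (2.38 and 2.25 higher in DIDO3ΔE16), as did Egr3 (1.62), at means of 0.444 and 0.0763 TPM.

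Among 12 tested negative regulators outside the 10, Dusp1, a phosphatase of several MAP kinases, was lower in both mutants. It had 166, 160.4 and 168 TPM in the WT libraries, 102, 104 and 102 in those of DIDO3ΔE16, and 61.95, 61.2 and 62.1 in those of DIDO3ΔCT+HADIDO3. The groups did not overlap, with log2 fold changes of -0.75 in DIDO3ΔE16 and -1.52 in DIDO3ΔCT+HADIDO3, and the same order as Dusp4 and Dusp6. Spred3, a Sprouty-related inhibitor, was higher in DIDO3ΔE16 than in WT (1.39) and than in DIDO3ΔCT+HADIDO3 (2.21), as Spry2 was with smaller changes, and was lower in DIDO3ΔCT+HADIDO3 than in WT (-0.85).

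Of 8 tested FGF ligands other than Fgf4, 3 were lower in DIDO3ΔCT+HADIDO3 than in WT: Fgf10 (-4.11), Fgf2 (-1.66) and Fgf3 (-0.97). Fgf1 was higher (1.55), and over all sites 7.24% were lower and 10.1% higher. In DIDO3ΔE16 against WT, Fgf1 (1.03) and Fgf2 (1.01) were higher, and between the mutants Fgf10 (3.70), Fgf2 (2.65), Fgf5 (1.64) and Fgf3 (0.89) were higher in DIDO3ΔE16. The Fgf2 site sums 2 features and overlaps another site on the opposite strand, a limit shared with Fgfr1, Etv4 and Egr2. Fgf5 was low, with means of 0.584 TPM in DIDO3ΔE16 and 0.127 in DIDO3ΔCT+HADIDO3, and Fgf10 had 0.558 in DIDO3ΔCT+HADIDO3. Of 4 feeder fibroblast markers tested between the mutants, 3 were higher in DIDO3ΔE16, as Fgf10 and Fgf2 were, and Thy1 was lower. Over all sites 13.9% were higher in DIDO3ΔE16 and 13.4% lower in that comparison. Col1a2 had a mean of 18.2 TPM in the WT libraries, 38.2 in those of DIDO3ΔE16, and 0.239 in those of DIDO3ΔCT+HADIDO3, and Col1a1 had 11.7, 28.7 and 1.14. The 9 markers summed to 56.2 to 60.8 TPM in the WT libraries, 115 to 121 in those of DIDO3ΔE16, and 55.7 to 60.6 in those of DIDO3ΔCT+HADIDO3, where Thy1 gave most of the sum and Col3a1 and Twist2 were listed at 0. Against WT, 6 of 7 feeder markers tested were called higher in DIDO3ΔE16 and 0 lower (10.2% and 4.94% of all sites). In DIDO3ΔCT+HADIDO3, 3 of 4 were lower than in WT and 1 higher (7.24% and 10.1%). The part of feeder cells in the values of the ligands, the members and the other listed genes was not tested.

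Receptors and co-receptors other than Fgfr1 and Fgfr2 moved both ways among 9 tested. Fgfr3 was higher in DIDO3ΔCT+HADIDO3 than in WT (1.40) and than in DIDO3ΔE16 (a difference of -1.71), the reverse of Fgfr2. The co-receptor genes Klb (-2.18) and Gpc4 (-1.17) were lower in DIDO3ΔCT+HADIDO3 than in WT, and Gpc4, a heparan sulphate carrier, was higher in DIDO3ΔE16 (0.78). Downstream, 11 RAS, RAF, MEK and ERK core genes held 2 called lower in DIDO3ΔCT+HADIDO3 than in WT, Hras (-4.86) and the scaffold gene Ksr1 (-0.87). Likewise, 8 adaptor and exchange factor genes held 2, Ptpn11 (-5.75) and Sos1 (-0.72). Over all sites 7.24% were called lower in that comparison. Ksr1 was higher in DIDO3ΔE16 than in WT (0.85). Ptpn11 and Hras sum several features, and Ptpn11 had 4.93 TPM in DIDO3ΔE16 replicate 2 against 167 and 172 in the other replicates of that group. Between the mutants, Hras (5.49), Gpc4 (1.93), Klb (1.82) and Ksr1 (1.70) were among the largest differences, all higher in DIDO3ΔE16. Map2k2, Gab1, Elk3 and Dusp1 were also higher there, and Sos2 and Elk4 lower. Elk3, an ETS factor gene, was higher in DIDO3ΔE16 than in WT as well (0.91).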

How the data were processed

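The data are 9 RNA-seq libraries of ESC. The authors used BWA-MEM (0.7.15) on mm10, took out duplicate reads and quantified UCSC 3′UTRs with 2 kb added by StringTie (1.3.3), with no strand option on the deposited command line. The deposited values are TPM of each feature in each library, and mean coverage was used for depth only. The authors ran edgeR on these TPM, while limma was used here.

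Features (42368 of 43031) were named by GENCODE vM21 on GRCm38. TPM were summed over features with identical coordinates, scaled between libraries by the mean log2 ratio left after trimming 30% of sites from either side, and sites above 0 TPM in every library compared were fitted as log2(TPM + 0.1) with limma (3.58.1, R 4.3.3; trend and robust; Benjamini-Hochberg over all sites; called at a log2 fold change of 0.7 or more in either direction with adjusted p under 0.05), since TPM are not counts. A log2 fold change on this scale understates changes of low sites. The smallest exact permutation p of 3 values set against 3 is 0.1. Site usage was tested with limma diffSplice. On simulated data with 200 changed sites, 37% (log2 change of 1) and 64% (log2 change of 2) were recovered for DIDO3ΔE16 against WT over 21063 sites, 51% and 66% for DIDO3ΔCT+HADIDO3 against WT over 20879, and 49% and 61% between the mutants over 21172, with 3, 3 and 1 false calls.

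Members and lists were chosen with earlier results of these data known. Named are all member sites, listed pathway genes whose lead site was called (at most the 12 largest changes per comparison, the others by name), the 3 sites most like Fgfr1 and overlapping neighbours. Alternatives were other pseudocounts, filters, scalings, feature sums, flow cell terms, a replicate block, leaving out each library and, chosen after seeing the data, sites of 1 feature and the highest feature of a site. Lists comprised FGF ligands, receptors and co-receptors, adaptors and exchange factors, the RAS to ERK core, negative regulators, ERK-responsive and ETS genes, and markers of pluripotent ESC, feeder fibroblasts, primitive endoderm, and primed epiblast and streak. Figures used Python (3.11.15) and matplotlib (3.10.9).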

Additional observations from a re-analysis of the deposited data

Results flagged for a closer look

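The effects of the 2 mutants against WT differed at 5 of the 10 lead sites, as tested by their direct comparison (limma, Benjamini-Hochberg). In it, 27.4% of all 21172 sites were called. At these 5, every library of one mutant lay on one side of every library of the other, as at 61.6% of all sites. Fgf4 was higher in DIDO3ΔE16 than in DIDO3ΔCT+HADIDO3 by a log2 fold change of 0.73, with -0.12 and -0.87 against WT. Fgfr2 was higher by 1.18, with -0.72 and -1.92 against WT. Spry4 was higher by 0.91, with -0.19 and -1.12 against WT. Egr1 was higher by 1.45, with -0.11 and -1.58 against WT. Etv5 was lower by -1.34, with 0.64 and 1.96 against WT, both including WT replicate 4. Groups of 3 libraries are too small for the outlier test used on larger groups.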

How the results depend on the processing

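Of 598 recomputed log2 fold changes of lead sites, 561 kept their direction and their side of the thresholds. In DIDO3ΔCT+HADIDO3 against WT the number of members called stayed within 5 to 7 under every alternative but the replicate block, and between the mutants within 4 to 6. In DIDO3ΔE16 against WT it was 1 in place of 2 with a pseudocount of 1, without scaling, with flow cell family as a covariate and at an adjusted p under 0.01, 1 to 3 when leaving out each library, and 0 of the 6 members listed as 1 feature without overlap (chosen after seeing the data). Over the whole table DIDO3ΔE16 against WT gave 3191 sites, 2111 at an adjusted p under 0.01, and 2081 among 11019 sites of 1 feature without overlap, where the direct comparison gave 3621 of 11087 in place of 5791. Under quantile normalization 55.0% of the sites called in DIDO3ΔE16 against WT were higher, and 67.4% otherwise. Reversed in DIDO3ΔE16 against WT were Etv5 with the covariate (-0.90), within C79M (-0.91) and without WT replicate 4 (-0.84, the lowest value when leaving out each library, the highest being 1.40), Etv4 within C79M (-0.0033), and Egr1 with the covariate (0.057) and within C79M (0.048). Etv4 between the mutants turned to 0.61 with the most abundant single feature and 0.60 with the highest feature of the site. With the replicate number as a block the counts against WT were 0 members and 0 sites in either mutant, as WT replicate 4 and mutant replicate 3 then have no partner and 1 residual degree of freedom is left, with Etv5 at -0.85 in DIDO3ΔE16, while between the mutants 5 members and 5183 sites were called. Same-numbered mutant libraries did not deviate together (correlations across 8002 sites of 0.0024, 0.00077 and -0.0167). WT replicate 1 gave -0.147 with DIDO3ΔCT+HADIDO3 replicate 1 and -0.063 with DIDO3ΔE16 replicate 1. No pairing by number was seen, which so few pairs cannot exclude. Site usage within the members, tested for Fgfr2 alone, gave 0 calls with all sites and with sites that share no base. Changes of low sites, such as the Fgfr2 sites, are limited by depth.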

Other observations

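Pluripotency and primed epiblast markers give the setting of these changes. Of 8 pluripotent ESC markers, Zfp42 was higher in DIDO3ΔCT+HADIDO3 than in WT (1.65) and than in DIDO3ΔE16. Klf4 was lower in DIDO3ΔCT+HADIDO3 than in WT (-0.75). In DIDO3ΔE16 against WT 0 of 8 were called (15.1% of all sites), though the groups did not overlap at 5 (49.4% of all sites). Esrrb and Nanog were spread widely in WT (5.18 to 1155 and 3.10 to 676 TPM). Both lay above every WT library in DIDO3ΔE16 (1230 to 1271 and 1016 to 1177 TPM). Esrrb also ranged from 9.7 to 1903 TPM in DIDO3ΔCT+HADIDO3. Of 8 markers of primed epiblast and primitive streak, 2 were called higher and 2 lower in DIDO3ΔE16 than in WT (10.2% and 4.94% of all sites). In DIDO3ΔCT+HADIDO3, 1 was higher and 2 lower (10.1% and 7.24%). Otx2 was lower in DIDO3ΔE16 than in WT (-2.25) and higher in DIDO3ΔCT+HADIDO3 (1.01), the same directions as Etv5 without WT replicate 4. Eomes was higher in DIDO3ΔE16 (0.88) and lower in DIDO3ΔCT+HADIDO3 (-0.70). Pou3f1 was also lower in DIDO3ΔCT+HADIDO3 (mean of 9.66 TPM, and 18.1 in WT). Nanog, like Etv4 and Etv5, was far lower in WT replicate 4 (3.10 TPM) than in WT replicates 1 and 2-3 (664 and 676 TPM).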
